A study of Mus musculus with 4 samples.

Results

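The genes described here are 7 genes of cytotoxic lymphocytes in Th9 cells, out of 515 genes in the table analysed. They comprise *Gzma* and *Prf1*, which encode effectors of the lytic granule, 4 killer-cell lectin-like receptors, *Klrd1*, *Klrk1*, *Klrc1* and *Klra7*, and *Cd8a*, the alpha chain of the CD8 co-receptor. They were looked up by gene name, and the names had been chosen from the same FPKM values that are given below, with their higher level in *Areg*-/- Th9 cells in view. The direction and size of their differences are therefore a description and were not tested.

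RNA was sequenced from 4 samples of the C57BL/6 strain, 2 of WT and 2 of *Areg*-/- Th9 cells. *Areg*-/- mice lack amphiregulin, which binds the epidermal growth factor receptor, in all their cells and not only in T cells. In both groups naïve CD4+ T cells were sorted from spleen and lymph nodes, activated through CD3 and CD28, and differentiated into Th9 cells by culture with TGF-β1 plus IL-4. The study's methods describe the mice as matched for age and sex. *Xist*, the RNA that silences an X chromosome in female cells, was however at 15.5 FPKM in WT against 43.4 FPKM in *Areg*-/- Th9 cells, a log2 ratio of 1.49, with no gene of chromosome Y in the table, and the part of a difference in sex in the values given here was not tested. The comparison asks what the loss of amphiregulin does to the transcriptome of Th9 cells. For each gene there is 1 FPKM value per genotype, that is, mapped fragments scaled by transcript length and by sequencing depth, with both samples of a genotype combined by the authors. No value per sample was at hand, so no spread between samples, interval or test could be computed for any difference, and these values do not give the depth. The WT column carries a tag for no doxycycline that the knockout column lacks, and it was assumed to stand for the WT samples. If the tag marks a difference in culture or batch, that difference cannot be told apart from genotype here. *Areg* itself was not in the table, so the knockout could not be checked at its own transcript.

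Cytotoxic lymphocytes kill by releasing granules onto a target cell. Perforin opens the target membrane, and granzymes, which are serine proteases, enter and cleave proteins that keep the cell alive. Natural killer (NK) cells and activated CD8+ T cells carry most of this machinery, and CD4+ T cells can acquire part of it. Killer-cell lectin-like receptors sit on the surface of the same cells, bind MHC class I or related molecules, and either restrain or trigger killing.

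All 7 genes were more abundant in *Areg*-/- Th9 cells, in a table in which 69.1% of the genes were higher. Of the 7 genes, 6 were more than 2-fold higher, beside 25.2% of the 515 genes, and the exception was *Cd8a*. Since the genes were chosen on this contrast, nothing can be read from either share. The median log2 ratio of *Areg*-/- over WT was 1.62 for the 7 genes and 0.62 for all listed genes. Their FPKM values summed to 23.3 in WT and 98.3 in *Areg*-/- Th9 cells, of which *Gzma* alone made up 58.7% and 72.1%. Without *Gzma* the sums were 9.64 and 27.5 FPKM.

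**Figure D1:**
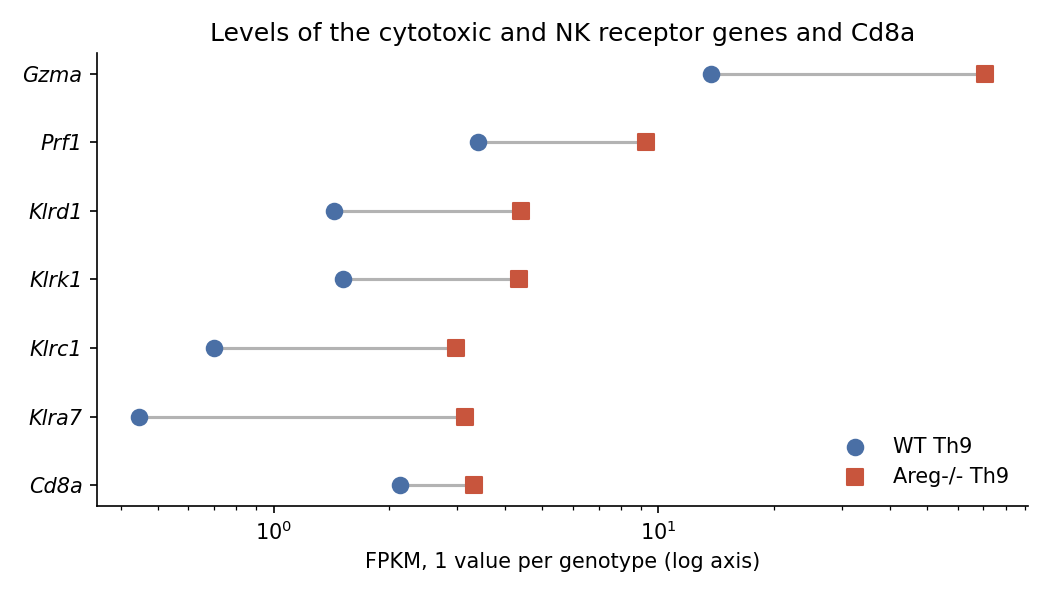
FPKM of each gene in WT Th9 cells (circles) and in *Areg*-/- Th9 cells (squares) on a log axis, with 1 value per genotype, from both samples combined, and no error bars. *Gzma* is the most abundant in both genotypes (13.7 and 70.8 FPKM), the distance is largest for *Klra7* (0.448 and 3.15 FPKM) and smallest for *Cd8a* (2.13 and 3.32 FPKM).

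*Gzma* encodes granzyme A, a trypsin-like protease of the lytic granule. Its level was 13.7 FPKM in WT against 70.8 FPKM in *Areg*-/- Th9 cells, a 5.17-fold higher value and a log2 ratio of 2.37. *Gzma* was at position 9 of the 515 genes by log2 ratio. Among the 211 listed genes with at least 10 FPKM in WT cells it had the largest log2 ratio, followed by *Ecm1*, which encodes a protein of the extracellular matrix, with 54.2 and 170.6 FPKM and a log2 ratio of 1.65. The median log2 ratio of the 130 genes of that group that were higher was 0.58. By the difference in FPKM, 57.1, *Gzma* was at position 20. *Gzma* (ENSMUSG00000023132.8) lies on the minus strand of chromosome 13 of GRCm38, from 113093825 to 113100981.

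*Prf1* (ENSMUSG00000037202.6, plus strand of chromosome 10, 61297833 to 61304680) encodes perforin. Its level was 3.41 FPKM in WT against 9.27 FPKM in *Areg*-/- Th9 cells, a 2.72-fold higher value with a log2 ratio of 1.44. The level of *Gzma* was thus 4.03 times that of *Prf1* in WT and 7.64 times that of *Prf1* in *Areg*-/- cells, both levels per transcript length.

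*Gzma* was not the main granzyme transcript of these cells. Of the 10 granzyme genes looked for, 3 were in the table, *Gzma*, *Gzmb* and *Gzmc*, beside 2.20% of all annotated protein-coding genes. All 3 were more abundant without *Areg*, where 69.1% of the listed genes were higher. As *Gzma* was chosen for being in the table and higher, nothing is read from these counts. *Gzmb*, which encodes granzyme B, the granzyme that cleaves caspases, stood at 736.9 FPKM in WT against 1362 FPKM in *Areg*-/- cells, a log2 ratio of 0.89. *Gzmc*, its neighbour in the granzyme cluster of chromosome 14, had 14.6 and 27.2 FPKM and a log2 ratio of 0.90. These ratios lie close together, so the level of *Gzmb* was 50.6 times that of *Gzmc* in WT and 50.1 times in *Areg*-/- cells. The level of *Gzma*, in contrast, was 1.86% of that of *Gzmb* in WT and 5.20% in *Areg*-/- cells. *Gzma* was thus level with *Gzmc* in WT cells, at 0.941 times its value, and at 2.60 times its value in *Areg*-/- cells. With 1 value per genotype, the replicate error of these proportions is unknown.

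In all, 4 of 26 genes of a list of granule and effector genes were in the table, all higher, with a median log2 ratio of 1.17. Of all annotated protein-coding genes 2.20% were in the table, and as *Gzma* and *Prf1* were chosen for being in it and higher, nothing is read from this count. The other 22 genes of this list, such as *Ifng*, *Fasl* and *Nkg7*, were not in the table and were not analysed here.

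The lectin-like receptors were expressed at low levels, between 0.448 and 1.51 FPKM in WT and between 2.97 and 4.40 FPKM in *Areg*-/- Th9 cells. The most abundant receptor had 3.38 times the level of the least abundant in WT and 1.48 times in *Areg*-/- cells. As the 4 genes were chosen for being higher in *Areg*-/- cells, nothing is read from this narrower spread. Of 26 annotated lectin-like receptor genes only these 4 were in the table, and since they were chosen on this contrast their count and their median log2 ratio of 1.85 restate that choice. *Klrd1* encodes CD94, which pairs with the NKG2 proteins. Its level was 1.44 FPKM in WT against 4.40 FPKM in *Areg*-/- cells, a 3.07-fold higher value. *Klrc1* encodes NKG2A, the inhibitory partner of CD94, and was at 0.702 FPKM in WT against 2.97 FPKM in *Areg*-/- cells, a 4.24-fold higher value. The level of *Klrd1* was 2.05 times that of *Klrc1* in WT and 1.48 times that of *Klrc1* in *Areg*-/- cells.

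*Klrk1* encodes NKG2D, an activating receptor for stress-induced ligands that does not need CD94. It was measured at 1.51 FPKM in WT against 4.34 FPKM in *Areg*-/- cells, a 2.87-fold higher value, close to that of *Klrd1*. *Klra7* encodes Ly49G, an inhibitory receptor for MHC class I. It had the lowest WT level of the 7 genes, 0.448 FPKM, and 3.15 FPKM in *Areg*-/- cells. Its 7.04-fold higher value, a log2 ratio of 2.82, put it at position 5 of the 515 genes. On log2(FPKM + 1), which shrinks the ratios of weakly expressed genes, *Klra7* had 1.52 and *Klrc1* 1.22 in place of 2.82 and 2.08, whereas *Gzma* had 2.29.

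Both inhibitory receptors share sequence with relatives that lie beside them. Of all stretches of 50 bases in the annotated transcripts of *Klrc1*, 38.6% also occur in transcripts of *Klrc2* or *Klrc3*. For *Klra7* the share was 12.3%, all of it with the pseudogene *Klra13-ps*. How the authors' counting assigned such reads is not given in the sources used here, and both values are uncertain to that extent. *Gzma*, *Prf1*, *Klrd1*, *Klrk1* and *Cd8a* shared no stretch of 50 bases with another annotated gene, and none of the 7 genes overlaps another annotated gene.

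The levels of these genes also have to be read against how the table was made. It holds only genes that the authors' comparison marked as changed, and weakly expressed genes in it had larger ratios. Of the 146 other listed genes with a WT level between those of *Klra7* and *Prf1*, 76.7% were higher in *Areg*-/- cells and 45.2% were more than 2-fold higher, with a median log2 ratio of 0.95. The 5 listed genes with a log2 ratio nearest to the median of the 7 genes, a likeness over no more than these 2 genotype values, were *Siah3*, *Cystm1*, *Scml4*, *Atg5* and *Naaa*, with log2 ratios between 1.60 and 1.64.

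**Figure D2:**
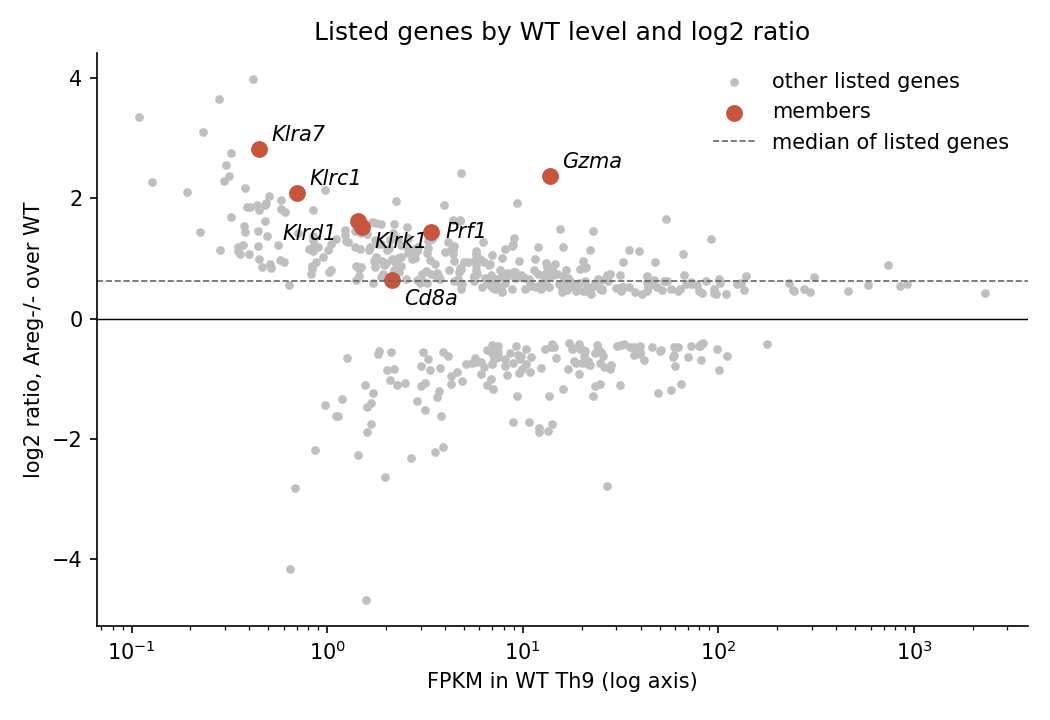
Log2 ratio of *Areg*-/- over WT against the FPKM in WT Th9 cells (log axis) for the 515 listed genes, each point being 1 gene, with the 7 genes in red and the median of all listed genes (0.62) as a dashed line. Ratios widen toward low FPKM, where *Klra7* (2.82) and *Klrc1* (2.08) lie, and *Gzma* (2.37) has the largest ratio among genes with at least 10 FPKM in WT cells.

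*Klrd1*, *Klrk1*, *Klrc1* and *Klra7* all lie in the natural killer gene complex, a cluster of genes for lectin-like receptors on chromosome 6. Position was not used to choose them, but 24 of the 26 protein-coding *Klr* genes of chromosome 6 lie in this cluster. The shared position of the 4 genes thus follows from their family and is no result. From *Klrb1a* to *Klra2*, where neighbouring *Klr* genes are less than 1 Mb apart, the cluster spans 2.64 Mb (128609227 to 131247362 in GRCm38) with 43 protein-coding genes, 24 of them *Klr* genes. Of the 43 genes, 5 were in the table, 11.6%, beside 2.20% of all annotated protein-coding genes. As 4 of the 5 are genes chosen here, this share is no result about the region. The first 3 lie within 87.2 kb. *Klrd1* (ENSMUSG00000030165.16) spans 129591782 to 129598775 on the plus strand. *Klrk1* (ENSMUSG00000030149.15) starts 18.5 kb further, from 129610323 to 129623864, and *Klrc1* (ENSMUSG00000030167.15) lies from 129666015 to 129678973, both on the minus strand. *Klrc3* and *Klrc2*, which lie between *Klrk1* and *Klrc1*, were not in the table. *Klra7* (ENSMUSG00000067599.13), from 130218605 to 130233322 on the minus strand, lies 553 kb from *Klrc1* among the Ly49 genes, of which no other was in the table.

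The fifth listed gene of the cluster went the other way. *Cd69*, which encodes an early activation marker of T cells, is a lectin-like gene on the other side of *Klrd1*. Its level was 39.7 FPKM in WT against 27.0 FPKM in *Areg*-/- Th9 cells, a log2 ratio of -0.56. Listed genes of the cluster were thus not all higher in *Areg*-/- cells.

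**Figure D3:**
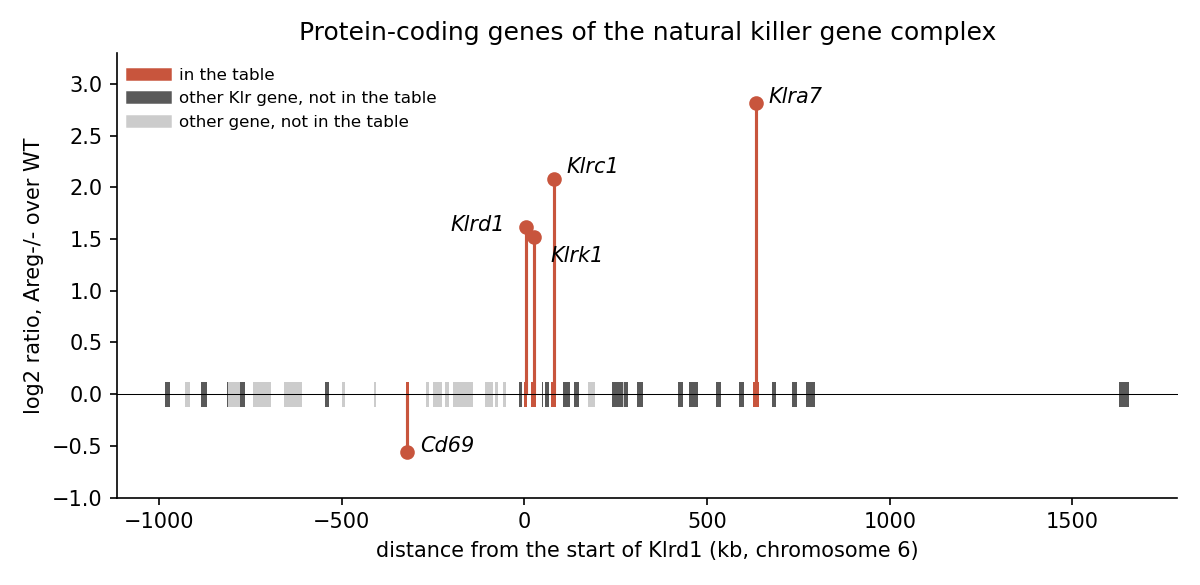
Protein-coding genes of the natural killer gene complex by distance from the start of *Klrd1* (kb), drawn as boxes on the zero line, and the log2 ratio of *Areg*-/- over WT for the 5 genes in the table (red). *Klrd1*, *Klrk1*, *Klrc1* and *Klra7* are above zero (1.52 to 2.82), *Cd69* is below (-0.56), and the other *Klr* genes (dark grey) and other genes (light grey) were not in the table.

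The sequences before the start sites were compared next, because genes of cytotoxic cells are known to be regulated by Runx, T-box and ETS transcription factors. RefSeq promoters on GRCm38.p6 were at hand for 6 of the 7 genes, not for *Klrd1*, with 2 start sites for *Klra7*. The 250 bases before each start were searched on both strands. The core letters of the Runx motif, TGTGGT or ACCACA on the other strand, were found once each for *Gzma*, *Prf1*, *Klrk1* and *Klrc1*. They were not found in these windows of *Cd8a* and *Klra7*. Of all 32851 promoters of this length, 14.0% hold these letters, and of the 473 promoters of listed genes 12.9%. Both other listed granzyme genes, *Gzmb* and *Gzmc*, had the letters in 2 places each. The T-box letters TCACACNT, where N is any base, were in none of the promoters of these 6 genes and in 2.95% of all promoters. The ETS letters GGAAGT were in that of *Prf1* and in 19.7% of all promoters, and no Runx match overlapped another motif. A match of letters is a description and does not show that a factor binds. With so few genes, nothing is read from these counts. The 4 promoters with Runx letters are given 5′ to 3′ up to the base before the start site, with these letters in capitals.
Gzma, chr13:113100982-113101231, minus strand: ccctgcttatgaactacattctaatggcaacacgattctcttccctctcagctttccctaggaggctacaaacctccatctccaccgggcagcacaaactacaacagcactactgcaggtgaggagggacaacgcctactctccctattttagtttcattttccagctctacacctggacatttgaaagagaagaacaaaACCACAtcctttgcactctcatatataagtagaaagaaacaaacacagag
Prf1, chr10:61297586-61297835, plus strand: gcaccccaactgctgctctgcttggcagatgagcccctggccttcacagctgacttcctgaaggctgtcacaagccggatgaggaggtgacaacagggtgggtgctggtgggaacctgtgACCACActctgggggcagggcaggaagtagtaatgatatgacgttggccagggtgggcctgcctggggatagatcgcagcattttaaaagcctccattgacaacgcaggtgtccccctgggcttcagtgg
Klrk1, chr6:129623865-129624114, minus strand: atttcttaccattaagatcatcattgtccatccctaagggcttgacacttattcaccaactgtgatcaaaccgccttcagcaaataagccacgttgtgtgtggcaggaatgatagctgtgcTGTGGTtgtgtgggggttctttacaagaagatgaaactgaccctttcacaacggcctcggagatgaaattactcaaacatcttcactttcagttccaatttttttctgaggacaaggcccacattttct
Klrc1, chr6:129678974-129679223, minus strand: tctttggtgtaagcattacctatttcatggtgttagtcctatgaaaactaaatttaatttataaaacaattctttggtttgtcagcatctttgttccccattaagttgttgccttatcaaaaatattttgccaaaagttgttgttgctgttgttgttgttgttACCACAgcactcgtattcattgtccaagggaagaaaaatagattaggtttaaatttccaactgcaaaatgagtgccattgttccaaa
In *Gzma* the match begins 50 bases before the start and in *Klrc1* 87 bases before it, both on the reverse strand. In *Klrk1* it begins 129 bases before the start on the coding strand, and in *Prf1* 130 bases before it on the reverse strand.

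Transcription factor genes of cytotoxic lymphocytes were looked up in the table as well. Of 12 such genes, 4 were in the table, beside 2.20% of all annotated protein-coding genes, 3 higher and 1 lower, where 69.1% of the listed genes were higher. The list was chosen with earlier results of these data known, so nothing is read from its count. *Tbx21*, which encodes T-bet, a T-box factor of Th1 and cytotoxic cells, was at 51.1 FPKM in WT against 35.7 FPKM in *Areg*-/- Th9 cells, a log2 ratio of -0.52. *Klf2*, a factor of lymphocyte trafficking and quiescence, had 1.39 and 3.17 FPKM, a log2 ratio of 1.19. *Prdm1*, which encodes Blimp-1, had 1.41 and 2.20 FPKM, a log2 ratio of 0.64. *Nfil3*, a factor needed for NK cell development, had 102.3 and 154.6 FPKM, a log2 ratio of 0.60. Both ratios were near the median of the listed genes. Centring on that median turned *Nfil3* to -0.029 by construction, although its FPKM was higher in *Areg*-/- cells. *Runx3* and *Eomes* were not in the table. Of 10 serpin genes, several of which encode inhibitors of granule proteases, *Serpinb1a* alone was in the table, with 0.321 and 2.15 FPKM and a log2 ratio of 2.74. Its product is best known as an inhibitor of neutrophil proteases.

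*Cd8a* (ENSMUSG00000053977.13, plus strand of chromosome 6, 71373427 to 71379173) lies far outside the natural killer gene complex. Its level was 2.13 FPKM in WT against 3.32 FPKM in *Areg*-/- Th9 cells, a 1.55-fold higher value. Its log2 ratio of 0.64 was the smallest of the 7 genes, at position 252 of 515, and almost equal to the median of all listed genes, so that a ratio of 0.011 was left after centring on that median. Of 9 genes of CD8+ T cells *Cd8a* alone was in the table, beside 2.20% of all annotated protein-coding genes. As *Cd8a* was chosen for being in it, nothing is read from this count. *Cd8b1*, the gene for the beta chain, was not in the table.

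Because the culture began from sorted CD4+ cells, the markers of other cells that could carry this machinery were looked up. Of 6 defining markers of NK cells (*Ncr1*, *Klrb1c*, *Eomes*, *Klre1*, *Tyrobp* and *Fcer1g*) 0 were in the table, and neither were any of 17 annotated NK receptors and adaptors, some of them the same genes, 7 markers of B cells and 11 markers of myeloid and dendritic cells. The table lists no gene at 0 and no gene that was not called, so the levels of these markers were not analysed here. Other genes known from antigen-presenting or myeloid cells, outside these lists and picked after their values were seen, were in the table. They went in both directions and stand for no group. *Ly6g*, a marker of neutrophils, had 0.279 FPKM in WT against 3.51 FPKM in *Areg*-/- Th9 cells, a log2 ratio of 3.65, which is above that of each of the 7 genes. The MHC class II genes *H2-Ab1*, *H2-DMb1* and *H2-Ob* had log2 ratios of 0.70, 1.27 and 1.16, and *H2-Ab1* was the most abundant of them, with 16.0 and 26.1 FPKM. The inhibitory receptor genes *Lilrb4a* and *Lilr4b* had log2 ratios of 1.15 and 1.18. Lower in *Areg*-/- cells were *Lair1*, *Il1a* and *Ccl22*, with log2 ratios of -1.88, -1.33 and -0.75. Markers of γδ T cells, which also express granzymes and NK receptors, were in the table. Of 5 annotated markers of γδ and innate-like T cells, 2 were listed and both were higher, where 69.1% of the listed genes were higher. Of all annotated protein-coding genes, a class that leaves out these 2, 2.20% were listed. *Tcrg-C1*, *Sox13* and *Zbtb16* were not in the table. The list was chosen with earlier results of these data known, so nothing is read from its count. The 2 genes had a summed level of 4.03 FPKM in WT against 9.46 FPKM in *Areg*-/- Th9 cells. *Trdc*, the constant region of the T cell receptor δ chain, had 1.23 and 3.23 FPKM, a log2 ratio of 1.39. *Tcrg-C2*, a constant region of the γ chain, had 2.80 and 6.23 FPKM, a log2 ratio of 1.15. These ratios lie within the range of the 7 genes, 0.64 to 2.82, which spans positions 5 to 252 by log2 ratio. That range is wide and comes from genes chosen on this contrast, so nothing is read from it. A γ chain gene outside the list that was picked after its values were seen, *Tcrg-C4*, had 1.63 and 3.59 FPKM, a log2 ratio of 1.14. *Trdc* overlaps other annotated genes of the receptor locus, and strand use in the counting is not given in the sources used here. The paper's methods report a high purity of the sorted naïve cells, before culture. The values used here hold no measure of the share of γδ T cells or CD8+ T cells in the cultures. The part of such cells in the higher values of the 7 genes was not tested, and in bulk RNA more cells of a type and more RNA per cell cannot be told apart.

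Of 10 markers of CD4+ and of all T cells, *Cd40lg*, which encodes the CD40 ligand of activated helper cells, was alone in the table, with 23.3 FPKM in WT against 10.7 FPKM in *Areg*-/- Th9 cells, a log2 ratio of -1.12. *Cd4* and the CD3 genes were not in the table. Of 15 genes linked to Th9 cells, 5 were listed, beside 2.20% of all annotated protein-coding genes. Of them 3 were higher (*Il10*, *Il21* and *Foxo1*, the last at 0.42 and at -0.21 after centring) and 2 were lower (*Il9* and *Ccl20*). This list was chosen with earlier results of these data known, so nothing is read from its count. The higher granule and receptor transcripts thus stood beside a lower *Il9*, at 3.82 and 1.24 FPKM.

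**Figure D4:**
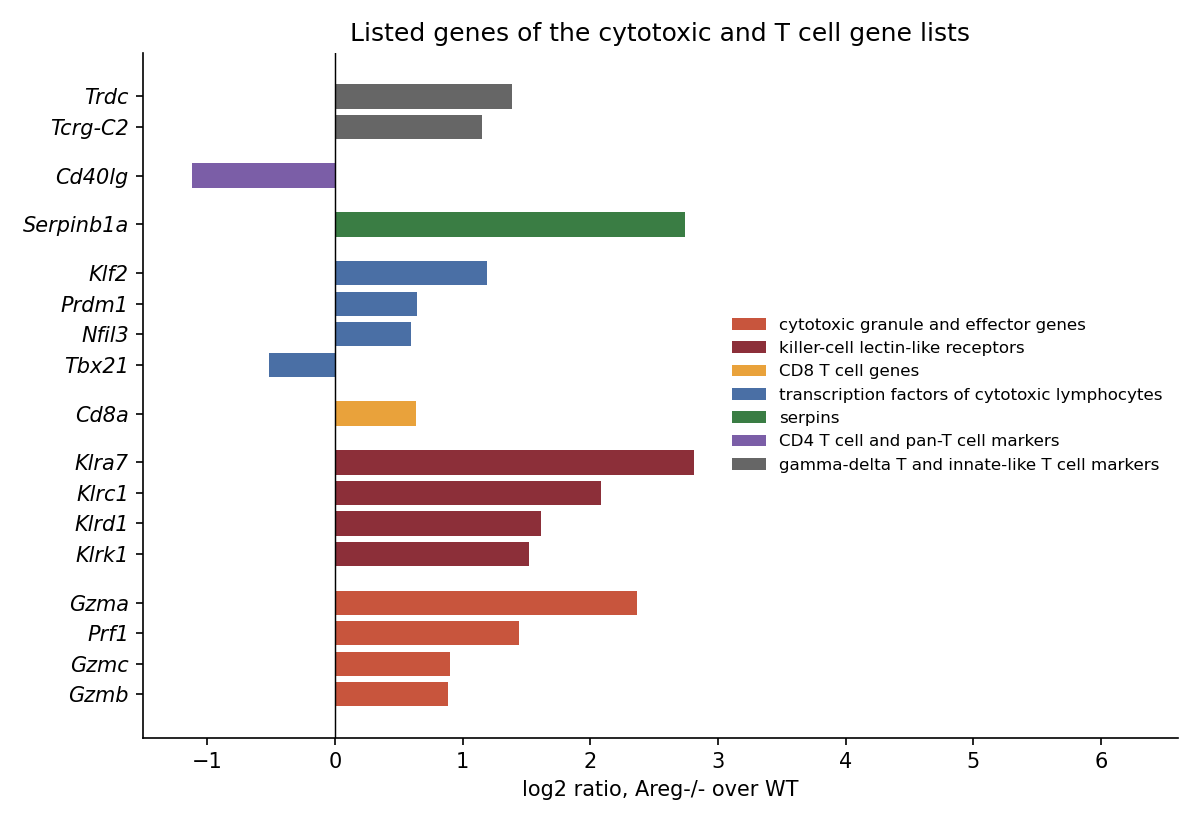
Log2 ratio of *Areg*-/- over WT for every gene of 7 of the gene lists that is in the table, coloured by list, with 1 bar per gene and no error bars since there is 1 value per genotype. Bars to the right are higher in *Areg*-/- Th9 cells, and *Tbx21* (-0.52) and *Cd40lg* (-1.12) are the genes with bars to the left.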

How the data were processed

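Th9 cells from WT and *Areg*-/- mice, 2 samples each, were profiled by poly(A)-selected paired-end RNA-Seq. Per the paper's methods and the submitters' processing notes, reads were quality trimmed and mapped to GRCm38 by the authors (TopHat2, Bowtie2), then quantified with HTSeq-count and compared with Cuffdiff. Versions of these aligners and of Cuffdiff are not given in the sources used here. The deposited FPKM values are the authors' own, 1 per genotype. The deposited table holds 515 genes, all marked as changed by the authors, and its columns of fold changes, test statistics, p-values and q-values were not used. The WT column is named as given no doxycycline and was taken as that of the WT samples.

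The log2 ratio of *Areg*-/- over WT was computed from both FPKM values without a pseudocount or filter. No test could be computed from 1 value per genotype. The 7 genes and the 12 gene lists were chosen with earlier results of these data known. Genes were named if they were one of the 7, in a gene list or the natural killer gene complex and in the table, or among the 5 nearest in log2 ratio. *Ecm1*, *Tcrg-C4*, *Xist*, *Ly6g*, *Lair1*, *Il1a*, *Ccl22*, the MHC class II and *Lilr* genes and the genes under the other observations were named after their values were seen. Coordinates and transcripts come from GENCODE M21 (GRCm38), whose gene coordinates matched the deposited loci of the 7 genes, and promoters from RefSeq (GRCm38.p6). Calculations were tested on simulated data. Python 3.11.15, numpy 2.4.6, pandas 2.3.3 and matplotlib 3.10.9 were used.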

Additional observations from a re-analysis of the deposited data

How the results depend on the processing

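No paired analysis was possible because values are given per genotype and not per sample, which also means that no replicate could be left out. A value was taken as moved when the fold or count changed by more than 1.5 times. None of the 103 alternative values, over 41 results, changed direction, 80 did not move and 23 moved. Most of these results are counts or positions, which have no direction. A pseudocount or the filter cannot turn the sign of a ratio, so only centring could have changed a direction. Centring on the median of all listed genes takes 0.62 from every log2 ratio by construction and left 1.74 for *Gzma*, 0.82 for *Prf1*, 0.99 for *Klrd1*, 0.89 for *Klrk1*, 1.46 for *Klrc1*, 2.19 for *Klra7* and 0.011 for *Cd8a*, with a median of 0.99 and 3 of the 7 genes above 2-fold in place of 6. Of the genes named from the other lists, which are not among those 41 results, it turned *Nfil3* from 0.60 to -0.029 and *Foxo1* from 0.42 to -0.21, so that 2 in place of 1 of the listed transcription factors lay below zero. That median is one of genes marked as changed and is no neutral zero. The FPKM of *Nfil3* and of *Foxo1* was higher in *Areg*-/- cells. A fold limit of 4 left 3 genes. On log2(FPKM + 1), which shrinks low values, *Klrc1* had 1.22 and *Klra7* 1.52, and the positions by log2 ratio were 2 for *Gzma*, 23 for *Prf1* and 9 for *Klra7*. Ranked by the difference in FPKM, which favours abundant genes, *Gzma* was at position 20, *Prf1* at 147, *Klrd1* at 225, *Klrk1* at 230, *Klrc1* at 254 and *Klra7* at 234. The natural killer gene complex taken between the outermost *Klr* genes of chromosome 6, which adds the distant *Klrg1* and *Klrg2*, held 23 listed genes in place of 5, and this bound was replaced once the annotation was seen. A pseudocount of 0.1, a minimum of 1 FPKM in a genotype and leaving out *Klra7* moved none of the values to which they were applied. All 7 genes pass that minimum, *Klrc1* and *Klra7* through their *Areg*-/- level alone, so it could remove none of them. The deposited values give no depth per sample, so no limit was set for genes with low FPKM.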

Other observations

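The chemokine receptor genes *Ccr2* and *Cxcr4* were also higher in *Areg*-/- Th9 cells. The genes of this paragraph were picked after their values were seen and stand for no group. *Ccr2*, a chemokine receptor of memory and effector cells, had 0.378 and 1.69 FPKM, a log2 ratio of 2.16. *Cxcr4*, the receptor for CXCL12, had 6.26 and 15.1 FPKM, a log2 ratio of 1.27. *Ctla2a*, which encodes a cathepsin inhibitor of activated T cells, had 91.4 and 229.7 FPKM, a log2 ratio of 1.33, and the transcription factor gene *Maf* had 16.1 and 36.7 FPKM, a log2 ratio of 1.19. Genes that T cells induce on activation went in both directions. Lower in *Areg*-/- cells were *Il2*, *Nr4a3*, *Csf2*, *Tnf* and *Egr3*, with log2 ratios of -2.79, -1.23, -1.17, -0.77 and -0.73. Higher were *Il21* and *Lag3*, among others, with log2 ratios of 0.74 and 0.58.

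Gene segments of the T cell receptor α chain went in both directions. *Trav14-2* was at 8.93 FPKM in WT against 21.0 FPKM in *Areg*-/- cells, *Trav3-3* 7.85 and 15.7 FPKM, and *Trav4-4-dv10* 13.4 and 23.6 FPKM, whereas *Trav14d-3-dv8* had 18.6 and 11.2 FPKM. Several of these segments have close copies in the same locus which can share reads.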
